A study of Mus musculus with 2 samples.

Results

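Genes that store, move and release iron were followed through the immune cells sorted from the brains of *Disc1* mutant and control mice. The set held 6 genes of the 32285 that were counted, and all 6 were detected in both libraries. They were taken as a functional group, with earlier results of these data known. *Fth1* and *Ftl1* encode the heavy and light chains of ferritin, *Tfrc* the transferrin receptor, *Slc11a1* the phagosomal metal transporter NRAMP1, *Slc40a1* the iron exporter ferroportin, and *Hmox1* heme oxygenase 1. On mm10 the genes lie at chr19:9980598-9985098 (*Fth1*, plus strand), chr7:45457944-45459884 (*Ftl1*, minus), chr16:32608920-32632794 (*Tfrc*, plus), chr1:74375195-74386062 (*Slc11a1*, plus), chr1:45908068-45926523 (*Slc40a1*, minus) and chr8:75093621-75100589 (*Hmox1*, plus).

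The study compared *Disc1* WT/WT mice (here WT) with *Disc1* LI/LI littermates (here LI), which are homozygous for a *Disc1* locus impairment. *Disc1* encodes a scaffold protein studied in psychiatric disease. Each group was 6 male mice of 23 weeks whose brains were pooled before sorting of CD45low CD11b+ cells, and each pool gave 1 droplet library that counts unique molecular identifiers (UMIs) at the 3′ ends of transcripts. Actinomycin D, an inhibitor of RNA synthesis, was present while the tissue was digested. The mutation is carried by every cell of the body, so differences need not arise in microglia, and with 1 library per genotype a difference between genotypes cannot be told apart from a difference between pools, sorts or libraries.

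Cells take up iron bound to transferrin through the transferrin receptor, macrophages also gain it by degrading the heme of engulfed red cells through heme oxygenase 1, and iron that is not used is locked into ferritin shells or exported by ferroportin. In phagosomes NRAMP1 moves metal ions out of the compartment, which deprives engulfed microbes of them. Ferritin, ferroportin and the transferrin receptor are classic cases of control after transcription, in which iron regulatory proteins bind a hairpin called the iron-responsive element. A hairpin before the coding sequence blocks translation when iron is scarce, and hairpins after it protect the *Tfrc* transcript from decay.

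The hairpins are shown because they divide the 6 transcripts into those with known control of translation or decay and those without, a layer that mRNA counts read in part for *Tfrc* and not at all for the others. The search asked for a C, then 5 bases, the loop CAGTGN, and 5 bases that pair with the first 5 (G-T pairs allowed), on the transcript strand only. GENCODE transcripts on GRCm38 (mm10) gave a match in the 5′ UTR of *Fth1* (exon 1, chr19:9982732-9982761, plus strand), *Ftl1* (exon 1, chr7:45459778-45459807, minus strand) and *Slc40a1* (exon 1, chr1:45925464-45925493, minus strand), with the loop 120, 158 and 212 bases before the start codon. The 3′ UTR of *Tfrc* (exon 19, plus strand) gave 4 matches at chr16:32631219-32631248, chr16:32631598-32631627, chr16:32631663-32631692 and chr16:32631710-32631739, between 894 and 1385 bases past the stop codon. Each line is 5′ to 3′ with the 6-base loop in capitals.
Fth1 5′ UTR: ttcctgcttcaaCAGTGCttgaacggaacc
Ftl1 5′ UTR: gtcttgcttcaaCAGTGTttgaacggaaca
Slc40a1 5′ UTR: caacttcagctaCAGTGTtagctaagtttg
Tfrc 3′ UTR, site 1: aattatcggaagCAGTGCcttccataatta
Tfrc 3′ UTR, site 2: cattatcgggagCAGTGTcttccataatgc
Tfrc 3′ UTR, site 3: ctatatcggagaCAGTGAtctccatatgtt
Tfrc 3′ UTR, site 4: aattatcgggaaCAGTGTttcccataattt
The same letters were found in the 5′ UTRs of 31 of 20916 genes (0.148%) and the 3′ UTRs of 129 of 21045 (0.613%), and not in either UTR of *Slc11a1* or *Hmox1*. A match is a description of sequence only.

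Of 7038 WT and 7834 LI barcodes, 7032 and 7817 passed the filters, with a median of 4234.5 and 4566 UMIs per cell, and 12 barcode sequences occurred in both libraries. *Disc1* was counted at 19.1 CPM (UMIs per 1000000 UMIs) in WT and 0.461 in LI. These values are over all cells that passed, whose mix of classes differed between the libraries as given below. Cells were divided by marker transcripts, none of which is in the iron set, into microglia (6180 WT, 1950 LI), neutrophils (116, 3622), border macrophages (186, 41) and other cells (550, 2204). In both libraries 10 of 10 microglial, 9 of 9 neutrophil and 6 of 6 border macrophage markers were higher inside their class than outside it. All 6 border macrophage markers, 6 of the microglial ones, and *S100a8* and *S100a9* also define the classes, so their higher level follows from the rules. Border macrophages of both libraries also had 6 of 6 MHC class II markers above the rest, at 2.72% of UMIs in WT and 3.78% in LI. Although all cells were sorted as CD45low CD11b+ and labelled microglia, microglia were 87.9% of the WT and 24.9% of the LI library. Other cells were split by further markers into monocyte-like (58, 1139), MHC class II-rich (190, 337), T and NK-like (61, 134) and smaller groups. Levels are CPM within the class, with 95% exact Poisson intervals in brackets, and ratios carry 95% exact binomial intervals. These cover counting error only, and no difference between libraries was tested.

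Ferritin storage transcripts were highest in border macrophages, the macrophages of meninges and perivascular spaces, and lowest in T and NK-like cells among the 6 classes plotted. *Fth1* was at 9802 [9583, 10024] CPM in WT and 11491 [11030, 11966] in LI border macrophages. In microglia it was at 3587 [3565, 3608] and 4430 [4385, 4476]. Border macrophages thus stood above microglia by a log2 ratio of 1.45 in WT and 1.38 in LI, with no overlap of the intervals. *Fth1* in MHC class II-rich cells was at 9196 in WT and 5495 in LI, and neutrophils as a whole followed with 4771 and 5059. The mature neutrophils described below, a part of that class, were at 8159 in WT and 11567 in LI. Their LI level lay within the LI border macrophage interval. Monocyte-like cells held 3672 and 3360, and their WT interval of 3491 to 3861 included the WT microglial level. T and NK-like cells came last, with 3150 in WT and 2199 in LI.

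*Ftl1* followed a different order, since monocyte-like cells stood next to border macrophages. Border macrophages contained 5760 [5593, 5932] CPM of *Ftl1* in WT and 6724 [6372, 7090] in LI. Monocyte-like cells had 5222 [5005, 5446] and 5397 [5348, 5446]. MHC class II-rich cells came after them with 3958 in WT and 3683 in LI. Neutrophils as a whole were at 2680 and 3031, microglia at 2206 and 2730, and T and NK-like cells at 1506 and 1497. Mature neutrophils alone had 4300 in WT and 5753 in LI, the latter above the LI monocyte-like level. The log2 ratio of monocyte-like cells to microglia for *Ftl1* was 1.24 in WT and 0.98 in LI, so that the LI value fell just short of the 2-fold limit used for classes. Together the ferritin pair made up 1.56% and 1.82% of all UMIs in border macrophages against 0.579% and 0.716% in microglia.

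**Figure D1:**
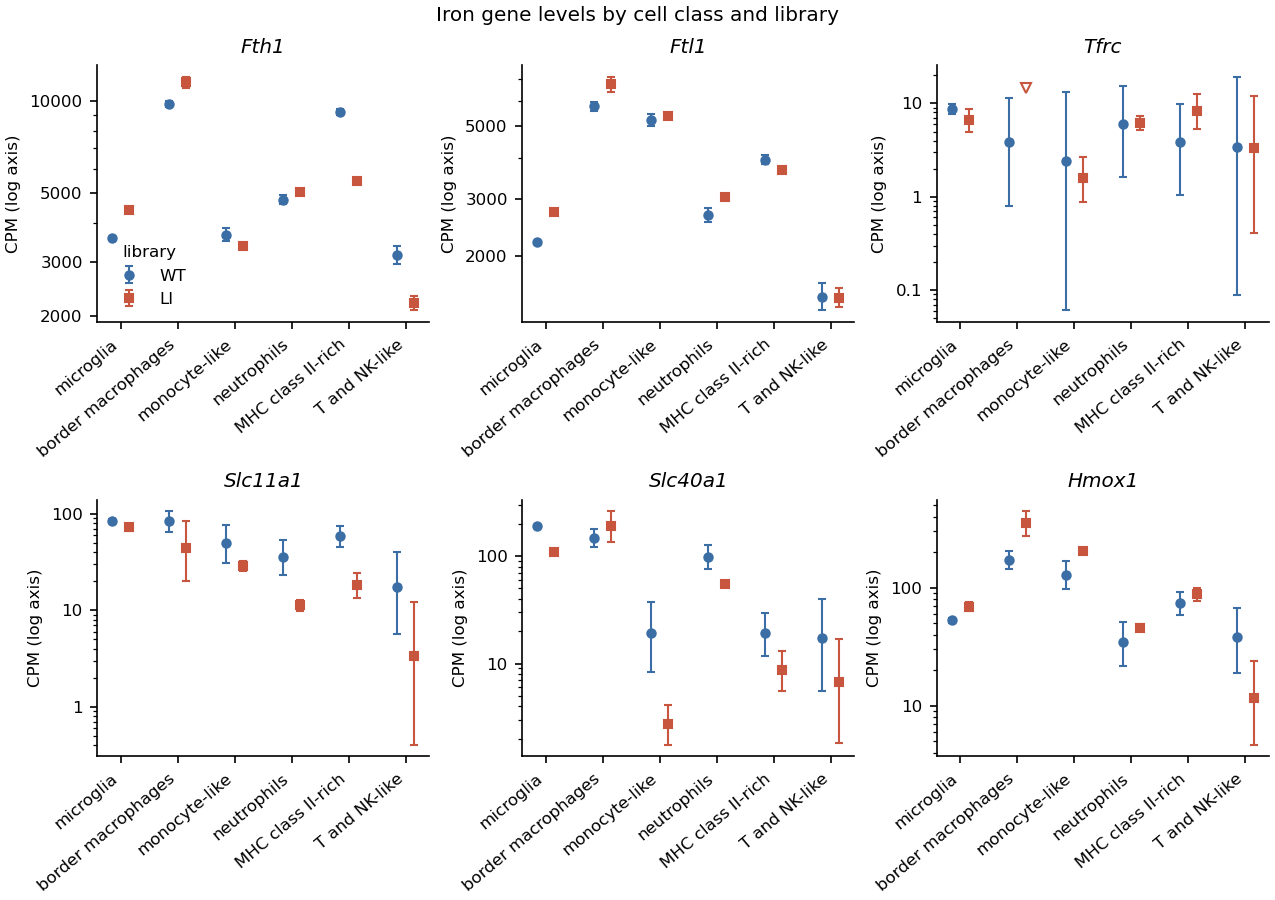
CPM (log axes, a separate range for each gene) of the 6 iron genes in 6 cell classes of the WT (circles) and LI (squares) libraries, with 95% exact Poisson intervals. The open downward triangle is the level that 3 UMIs would give where none was counted; ferritin and *Hmox1* are highest in border macrophages, while *Slc40a1* is low in monocyte-like, MHC class II-rich and T and NK-like cells of both libraries.

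Because both chains build the same shell, the ratio of *Fth1* to *Ftl1* UMIs was compared between classes. The ratio is not a molar one, as the genes may be captured unequally, and only its differences are described. It was 1.63 in WT and 1.62 in LI microglia, and 1.70 and 1.71 in border macrophages. Monocyte-like cells had the reverse order, with a ratio of 0.703 [0.658, 0.751] in WT and 0.623 [0.614, 0.632] in LI. Among microglia with at least 10 ferritin UMIs, *Fth1* outnumbered *Ftl1* in 79.8% of WT and 79.4% of LI cells. In monocyte-like cells this held for 17.9% and 13.9%.

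Low ratios were also found in rarer cells, which only the LI library held in number. The 269 cycling cells of its neutrophil class had a ratio of 0.582 [0.563, 0.602] and its 155 cells with granulocyte-monocyte progenitor markers 0.528 [0.512, 0.545]. These last cells also carried basophil protease transcripts, so they are called progenitor-marker cells here. The cycling cells met the *S100a8* and *S100a9* limit of neutrophils. The 9 neutrophil markers took 34.3% of their UMIs, with 4 of 9 above the rest. They also had 5 of 6 granulocyte-monocyte progenitor markers above the rest (1.44% of UMIs). Their 10 leading genes included *Elane*, *Ms4a3* and *Prtn3* as well as *Camp*. In WT the 3 cycling cells of the neutrophil class held 45 *Fth1* and 76 *Ftl1* UMIs. The 4 progenitor-marker cells of WT held 172 and 382. Among other cells the ratio was 1.64 in WT and 0.801 in LI, where monocyte-like cells were 58 of 550 and 1139 of 2204 cells. The ratio was above 1 in 7 of the 8 sums of the 4 main classes and 2 libraries.

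**Figure D2:**
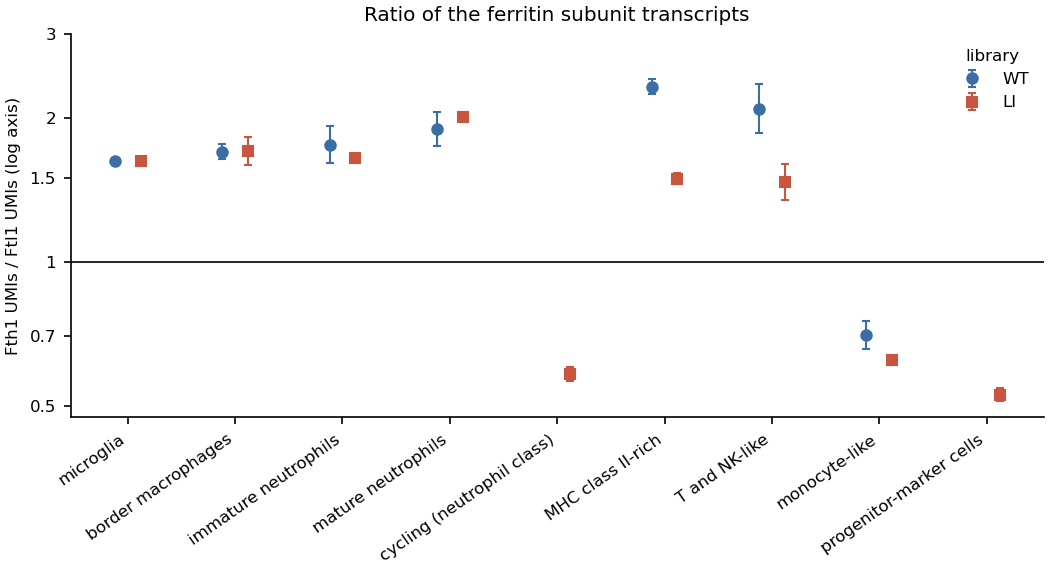
Ratio of *Fth1* to *Ftl1* UMIs by cell class in the WT (circles) and LI (squares) libraries with 95% exact binomial intervals and a line at 1. Monocyte-like cells of both libraries, and the cycling cells of the neutrophil class and the progenitor-marker cells of LI, lie below 1. Microglia, border macrophages and immature and mature neutrophils lie above it. The 3 cycling and 4 progenitor-marker cells of WT are not drawn.

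The link between the chains from cell to cell was described by a correlation, whose value differed between classes and between the 2 libraries of a class. Cells of at least 1000 UMIs were thinned to that depth, and Pearson's r between *Fth1* and *Ftl1* UMIs was taken over them. It was 0.27 in WT and 0.22 in LI microglia, 0.41 and 0.59 in border macrophages, and 0.68 and 0.33 in monocyte-like cells. It was 0.04 over the 53 immature WT neutrophils and 0.30 over those of LI. Mean *Fth1* UMIs per thinned cell were 3.59 in WT microglia and 10.3 in WT border macrophages, and the part of count level in r was not tested. Some values rest on few cells, as with 40 LI border macrophages and 58 WT monocyte-like cells. Intervals of r were not computed, so its differences between libraries may lie within sampling error. The values of r describe cells of 1 library each and are not tests.

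The uptake receptor *Tfrc* was sparse throughout. Microglia held 255 UMIs in WT, or 8.68 [7.64, 9.81] CPM, and 54 in LI, or 6.61 [4.96, 8.62]. A *Tfrc* UMI was seen in 3.66% of WT and 2.56% of LI microglia. The shares were 0.889% and 0.776% once cells of at least 1000 UMIs were thinned to that depth. T and NK-like cells, of a median depth of 4103 and 3914 UMIs against 4271 and 3787.5 in microglia, showed it in 1.64% and 1.49% of cells as counted, from 1 and 2 UMIs. Border macrophages had 3 UMIs in WT and none in LI, where 3 UMIs would have given 14.7 CPM, so a difference from microglia was not detectable at this depth. Neutrophils as a whole were at 6.00 [1.63, 15.4] in WT, from 4 UMIs, and at 6.16 [5.16, 7.30] in LI.

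The LI neutrophil value came mostly from its cycling cells, which carried the neutrophil and progenitor markers described above. They held 108 of the 133 *Tfrc* UMIs, a level of 20.0 [16.4, 24.1] CPM. The immature cells were at 1.66 [0.984, 2.63] and the mature ones at 1.31 [0.527, 2.70] CPM. LI progenitor-marker cells were at 12.1 [8.79, 16.2], whereas the 264 cycling monocyte-like cells of LI were at 1.97 [0.725, 4.30] from 6 UMIs, close to the 1.60 of all monocyte-like cells there. The 269 cycling cells of the neutrophil class were also deep, with a median of 18931 UMIs, and the share with a *Tfrc* UMI went from 25.7% as counted to 1.12% after thinning. Cells carrying endothelial markers, a known site of high transferrin receptor in brain, had 2 UMIs in 13 WT cells and 10 UMIs in 19 LI cells, or 48.0 and 161 CPM. In the 15 erythroid-like LI cells all 15 *Tfrc* UMIs sat in 1 cell.

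*Slc11a1*, which serves professional phagocytes, was highest in microglia and in WT border macrophages. Microglia were at 84.2 [80.9, 87.5] CPM in WT and 72.3 [66.6, 78.4] in LI. WT border macrophages were at 83.8 [64.6, 107], an interval that includes the microglial level, and those of LI at 44.2 [20.2, 84.0] from 9 UMIs. MHC class II-rich cells had 58.9 and 18.3, monocyte-like cells 50.3 and 29.0, and neutrophils 36.0 [23.0, 53.5] and 11.2 [9.85, 12.7]. The share of cells with a UMI was 30.9% and 24.8% in microglia against 4.92% and 1.49% in T and NK-like cells, and after thinning 8.18% and 6.73% against 0 of 61 and 0 of 134 cells, for which the exact 95% intervals reach 5.87% and 2.72%.

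The exporter *Slc40a1* separated the resident brain macrophages and neutrophils from monocyte-like cells. It was at 191 [186, 196] CPM in WT and 109 [102, 117] in LI microglia. Border macrophages had 148 [122, 178] in WT and 192 [136, 262] in LI, although a single cell contributed 46.2% of the LI UMIs. Monocyte-like cells were at 19.2 [8.27, 37.8] and 2.75 [1.76, 4.09], and MHC class II-rich cells at 19.3 and 8.77. The log2 ratio of monocyte-like cells to microglia was therefore −3.32 in WT and −5.31 in LI. T and NK-like cells, at 17.3 and 6.67, were like monocyte-like cells of WT, and cells with endothelial markers held 240 and 194 CPM from 10 and 12 UMIs.

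Cell by cell, 51.3% of WT and 32.0% of LI microglia had a *Slc40a1* UMI. After thinning to 1000 UMIs the shares were 15.8% and 9.83%. T and NK-like cells had a UMI in 8.20% and 2.99% of cells, and in 0% (interval to 5.87%) and 0.746% (interval to 4.09%) after thinning.

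**Figure D3:**
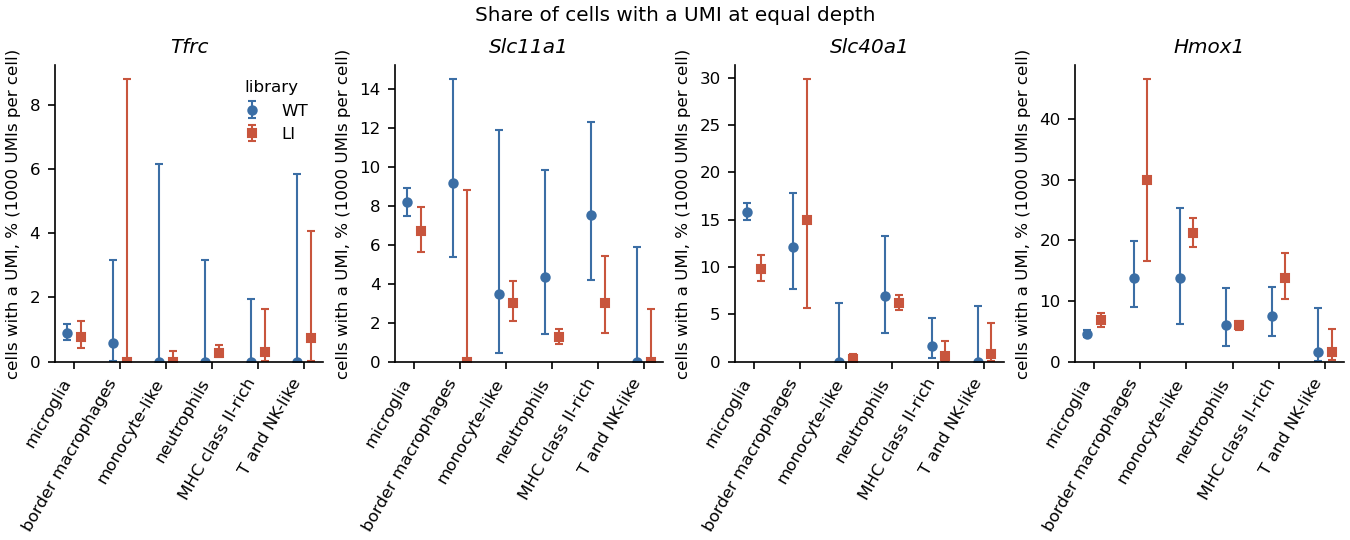
Percent of cells with at least 1 UMI of *Tfrc*, *Slc11a1*, *Slc40a1* and *Hmox1* after thinning to 1000 UMIs, by class and library, with 95% exact binomial intervals. Cells with fewer than 1000 UMIs are left out. The 15.8% of WT and 9.83% of LI microglia with *Slc40a1* stand above the 0% and 0.746% of T and NK-like cells, and *Hmox1* is highest in border macrophages and monocyte-like cells.

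*Hmox1*, which opens the heme ring and frees its iron, was highest in border macrophages and monocyte-like cells. Border macrophages held 173 [145, 205] CPM in WT and 354 [277, 446] in LI, of which 1 cell contributed 23.6% in LI. Monocyte-like cells were at 129 [97.2, 169] and 206 [197, 216]. MHC class II-rich cells had 74.3 and 87.7, microglia 53.1 [50.5, 55.8] and 69.3 [63.7, 75.2], neutrophils 34.5 and 46.1, and T and NK-like cells 38.0 and 11.7. The intervals of the border macrophages and monocyte-like cells overlapped in WT and not in LI. A *Hmox1* UMI was present in 39.2% and 61.0% of border macrophages and in 9.84% and 4.48% of T and NK-like cells. After thinning these shares were 13.8% and 30% against 1.64% and 1.49%.

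In monocyte-like cells of LI, those with a *Hmox1* UMI after thinning (241 of 1136) also had more ferritin, by a log2 ratio of 0.22 [0.12, 0.33] for *Fth1* and 0.17 [0.09, 0.26] for *Ftl1*. Mature LI neutrophils showed 0.15 and 0.18 for the same split. The MHC class II-rich LI cells stood apart with 0.79 [0.60, 0.98] for *Ftl1* and 0.16 [−0.02, 0.33] for *Fth1*. That split rests on 46 cells with a *Hmox1* UMI of 335. Immature LI neutrophils had 0.34 and 0.37. Microglia were at 0.04 and 0.07 in WT, with intervals that included 0, and at 0.17 [0.05, 0.28] for *Fth1* and 0.05 for *Ftl1* in LI, and WT border macrophages had −0.31 for *Fth1*. Such a difference was not particular to *Hmox1*. In LI monocyte-like cells a split by *Slc11a1* (34 cells with a UMI) gave 0.46 [0.23, 0.68] for *Fth1* and 0.45 [0.27, 0.63] for *Ftl1*. In microglia the *Slc11a1* split gave −0.01 in WT and −0.17 in LI for *Fth1*. The intervals of all these splits are too narrow, since *Fth1* varied between cells more than counting gives. Its variance over mean was 2.43 in LI monocyte-like, 3.59 in LI immature neutrophil, 3.81 in WT border macrophage and 14.4 in LI MHC class II-rich cells. In the last cells that of *Ftl1* was 5.27. Cycling LI monocyte-like cells had *Hmox1*, *Fth1* and *Ftl1* at 166%, 52.4% and 158% of the microglial level, against 298%, 75.8% and 198% in the whole class. Their part was not tested.

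Set against microglia, 3 of the 6 genes, *Fth1*, *Ftl1* and *Hmox1*, were 2-fold or more higher in border macrophages of both libraries, and *Tfrc* met the fold limit from its 3 and 0 UMIs, which do not show a difference. Of all 8790 genes tested, 14.7% differed that much in 1 direction. The log2 ratio for *Hmox1* was 1.70 in WT and 2.35 in LI, and the median over all genes was −0.36 and −0.45. In monocyte-like cells *Hmox1* was higher, with ratios of 1.28 and 1.57, and *Slc40a1* and *Tfrc* were lower, the latter from 1 and 14 UMIs, beside 34.6% of all genes. MHC class II-rich cells differed for *Slc40a1* only, with −3.31 and −3.64, beside 27% of all genes. T and NK-like cells were lower for *Slc11a1* and *Slc40a1*, from 2 to 5 UMIs in each library, beside 27.9%. In the last 2 classes the share of 1 and 2 genes in 6 was near the background.

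Neutrophils, phagocytes of short life that carry iron-binding granule proteins, differed from microglia past 2-fold in both libraries for 1 of the 6 genes, *Slc11a1*, while 57.4% of all 9844 genes did. Its log2 ratio was −1.23 [−1.87, −0.65] in WT and −2.69 [−2.91, −2.47] in LI. After thinning it was −0.49 and −2.41, which no longer met the limit in WT, where 5 of 115 neutrophils kept a UMI. Without thinning, *Slc40a1* was at −0.95 and −0.99 and *Hmox1* at −0.62 and −0.59. *Fth1* had ratios of 0.41 and 0.19 and *Ftl1* of 0.28 and 0.15, against a median of −1.17 in WT and −1.39 in LI over all genes. The pooled class averaged the mature and immature cells described below. *Hmox1* was at 134% of the microglial level in WT and 148% in LI mature cells. In immature cells it was at 36.6% and 43.3%, with 15 mature and 8 immature UMIs in WT. *Fth1* was at 227% and 261% in mature and 96.1% and 87.6% in immature cells. These values depend on what fills the UMI total of a class, since 9 neutrophil markers alone took 31.6% of WT and 39.2% of LI neutrophil UMIs. Scaling by trimmed means of M values (TMM), which discounts such genes, raised every neutrophil to microglia ratio by 0.50 in WT and 1.36 in LI, and turned *Slc40a1* and *Hmox1* in LI to 0.37 and 0.77. Thinning turned *Hmox1* in WT to 0.32, with a UMI left in 7 of 115 neutrophils.

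Microglial transcripts were also present in the neutrophil class. The summed 6 markers that define microglia were at 17.2% of their microglial level in WT neutrophils and 3.07% in LI. *Slc11a1* in neutrophils was at 42.7% and 15.5% of the microglial level, and *Slc40a1* at 51.9% and 50.3%. In T and NK-like cells the same markers stood at 12.3% and 9.09%, and *Slc40a1* at 9.05% and 6.11%. These percents depend on the UMI total of each class, and the source of the *Slc40a1* UMIs in neutrophils was not tested. With the 11 WT and 57 LI neutrophils that had at least 0.5% of UMIs from the microglial markers left out, a choice made after the data were seen, *Slc40a1* ratios to microglia were −1.07 and −1.01, now past 2-fold in both.

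Along neutrophil maturation, ferritin transcripts were a larger share of UMIs in mature cells. Immature cells, which still make the granule transcripts *Camp* and *Ngp*, had *Fth1* at 3445 [3268, 3629] CPM in WT and 3881 [3844, 3919] in LI. Mature cells had 8159 [7778, 8554] and 11567 [11476, 11658]. *Ftl1* went from 1957 to 4300 in WT and from 2352 to 5753 in LI. These are shares of totals that were smaller per cell in mature cells. As counts, 53 immature WT cells held 1417 *Fth1* and 805 *Ftl1* UMIs, and 60 mature ones 1721 and 907. In LI, 1582 immature cells held 42067 and 25496, and 1771 mature ones 61754 and 30716. Counts per cell thus differed less than CPM. The log2 ratio of mature to immature cells was 1.24 and 1.58 for *Fth1* and 1.14 and 1.29 for *Ftl1*, and 0.86 and 1.43, and 0.75 and 1.15, under TMM scaling. Only 3 of the 6 genes had the 50 UMIs needed in each library, and 2 of them were 1.5-fold or more higher in both, beside 25.5% of 1486 genes that were. *Slc40a1* was the exception, with 0.92 [0.17, 1.67] in WT and 0.34 [0.15, 0.53] in LI.

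Below that count, *Hmox1* was at 19.5 in immature and 71.1 in mature WT cells, from 8 and 15 UMIs, and at 30.0 and 102 in LI. *Slc11a1* went from 26.7 to 61.6 in WT, from 11 and 13 UMIs, and from 8.40 to 25.5 in LI. The cycling cells of the LI neutrophil class, with their neutrophil and progenitor markers, had the lowest *Fth1* of the 3 stages, 992 [965, 1019], and the highest *Tfrc*. Depth ran opposite to *Fth1*, with median UMIs of 18931 in cycling LI cells, 6711 and 6144 in immature and 2675.5 and 2641 in mature cells.

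**Figure D4:**
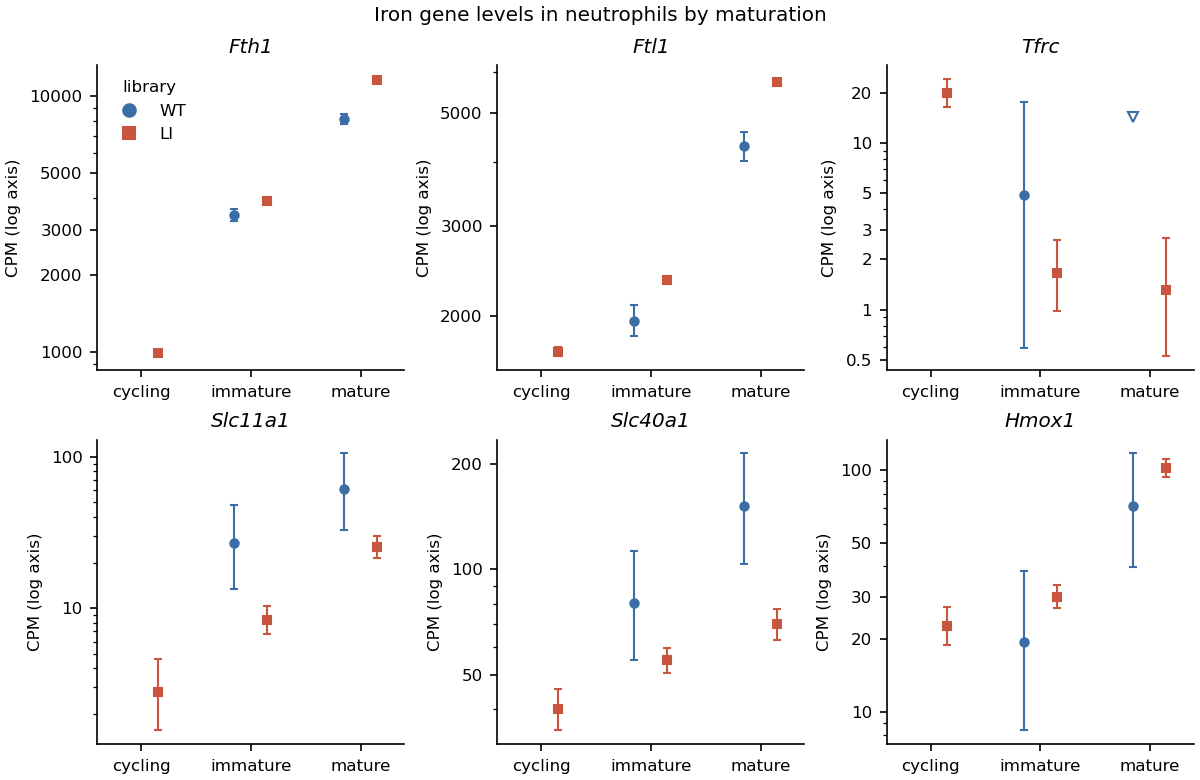
CPM (log axes) of the 6 genes in cycling, immature and mature cells of the neutrophil class in the WT (circles) and LI (squares) libraries with 95% exact Poisson intervals; the 3 cycling WT cells are not drawn. *Fth1*, *Ftl1* and *Hmox1* are higher in mature than in immature cells of both libraries, *Tfrc* is highest in cycling LI cells, and the open triangle marks the level of 3 UMIs for *Tfrc* in mature WT cells, where none was counted.

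Between genotypes, microglia differed most for the exporter. *Slc40a1*, at 191 CPM in WT and 109 in LI, gave a log2 ratio of LI to WT of −0.80 [−0.91, −0.70]. It was the 1 of 6 genes past 1.5-fold, a share close to the 19.1% of 11087 genes tested. Ratios were 0.30 [0.29, 0.32] for *Fth1*, 0.31 [0.28, 0.33] for *Ftl1* and 0.38 [0.24, 0.52] for *Hmox1*, all higher in LI by less than 1.5-fold. *Slc11a1* was at −0.22 [−0.35, −0.09], and *Tfrc* at −0.39 with an interval from −0.84 to 0.04 that included no difference.

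The whole transcriptome was shifted between the microglia of the 2 libraries, with a median log2 ratio of −0.19 over all genes. The shift followed the length of the gene on the genome, with a median of 0.05 in the shortest of 3 equal groups, −0.19 in the middle one and −0.42 in the longest. *Fth1*, *Ftl1*, *Slc11a1* and *Hmox1* belong to the shortest group and *Tfrc* and *Slc40a1* to the middle one. Neutrophil marker transcripts (9 of 9 detected) made up 0.0182% of WT and 0.127% of LI microglial UMIs, and the part of any of this in the iron genes was not tested. Leaving out the 108 WT and 7 LI microglia with 3 or more border macrophage markers gave *Slc40a1* a ratio of −0.81.

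**Figure D5:**
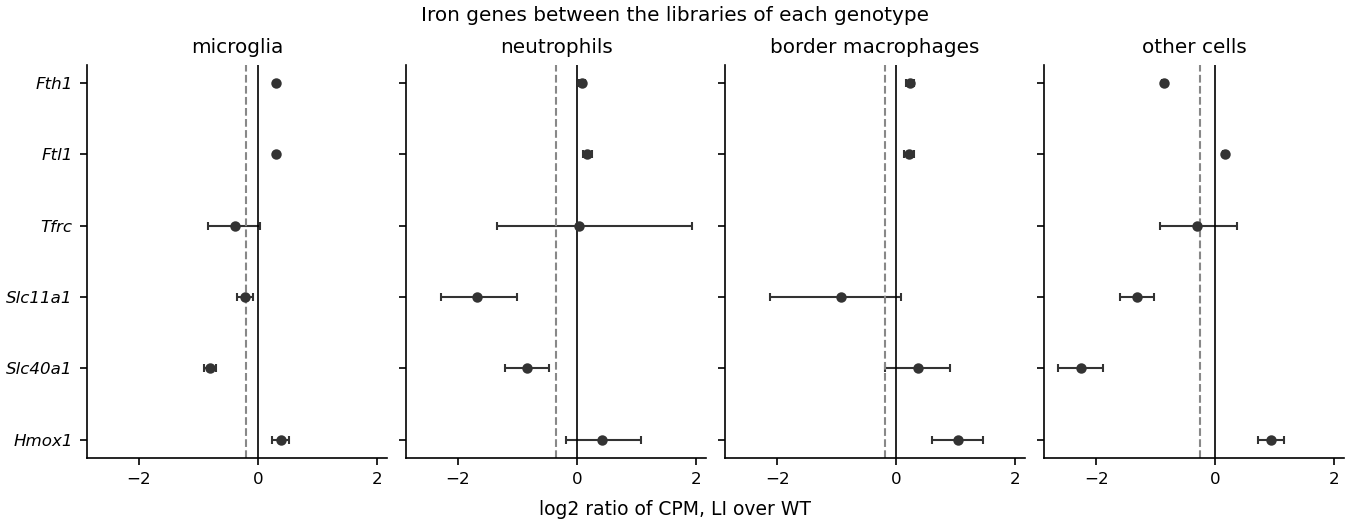
Log2 ratio of LI to WT CPM for the 6 genes in the 4 main classes with 95% exact binomial intervals, which cover counting error only. The dashed line in each panel is the median of all genes tested in that class, −0.19 in microglia, −0.35 in neutrophils, −0.18 in border macrophages and −0.26 in other cells.

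In neutrophils *Slc11a1* and *Slc40a1* were past 1.5-fold, 2 of 6 genes beside 29% of 8769. *Slc11a1* had a ratio of −1.68 [−2.29, −1.01], from 24 UMIs in 116 WT cells and 242 in 3622 LI cells, and −0.77 under TMM scaling. *Slc40a1* had −0.85 [−1.21, −0.47], which TMM scaling, with a shift of 0.91 in this class, turned to 0.065. *Slc40a1* thus had no direction that held under both scalings. *Fth1* and *Ftl1* were at 0.08 and 0.18, and *Tfrc* and *Hmox1* had intervals that included 0. Under TMM scaling *Fth1* was at 1.00, *Ftl1* at 1.09 and *Hmox1* at 1.33, all past 1.5-fold. Within the immature cells *Slc11a1* was at −1.67 and *Slc40a1* at −0.54 [−1.05, 0.01], and within the mature cells they were at −1.27 and −1.12, where *Fth1* had 0.50 and *Ftl1* 0.42. The WT class had the microglial marker content given above, whose part in these ratios was not tested. Without the marker-bearing cells, *Slc11a1* was at −1.63 and *Slc40a1* at −0.75.

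Border macrophages differed past 1.5-fold for *Hmox1* alone among the 5 genes with 50 UMIs, with a ratio of 1.04 [0.60, 1.46], beside 18.2% of 2841 genes. It rested on 134 UMIs in WT and 72 in LI, and ranged from 0.97 to 1.37 over 10 alternatives, although after thinning to 1000 UMIs, with few UMIs left, it did not count as past the limit. *Fth1* was at 0.23 and *Ftl1* at 0.22 (−0.031 by the mean of each cell's CPM), and *Slc11a1* and *Slc40a1* had intervals that included 0.

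Among other cells 4 of 6 genes were past 1.5-fold, beside 42.7% of 10402 genes. *Hmox1* was at 0.94, *Fth1* at −0.86, *Slc11a1* at −1.32 and *Slc40a1* at −2.26. TMM scaling, with a shift of 0.47 here, gave *Fth1* −0.39 and *Ftl1* 0.64. This class held different cells in the 2 libraries, and the ratios within its subclasses differed from the pooled ones. Within monocyte-like cells *Fth1* was at −0.13, *Ftl1* at 0.05, *Hmox1* at 0.67 [0.28, 1.09] and *Slc11a1* at −0.80 [−1.44, −0.08]. Within MHC class II-rich cells *Fth1* was at −0.74 and *Slc11a1* at −1.68, and the LI cells of that class also carried immunoglobulin transcripts.

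A wider list of 74 further genes of iron uptake, storage, export, heme metabolism, iron-sulfur clusters and their control gave the context. In microglia 55 were tested between genotypes, of which 4 were higher and 11 lower in LI, beside 288 higher and 1828 lower (19.1%) of all 11087 genes. The median log2 ratio was −0.16 in the list and −0.19 over all genes. *Ltf* (lactoferrin), *Lcn2* (which binds bacterial iron carriers) and *Hp* (haptoglobin) were higher in LI microglia, at 22.5, 117 and 41.5 CPM against 0.681, 2.48 and 0.953 in WT. In LI neutrophils these genes were at 3670, 12956 and 2408 CPM. The rise in LI was not particular to microglia. In border macrophages *Ltf*, *Lcn2* and *Hp* were at 0, 7.73 and 0 CPM in WT and 24.6, 103 and 39.3 in LI. In monocyte-like cells *Ltf* and *Lcn2* were at 0 and 38.3 in WT and 19.5 and 137 in LI. *Hp* was also at 982 in WT and 1387 in LI monocyte-like cells. Neutrophil markers were higher in LI than in WT microglia too, as given above, and the source of these transcripts in microglia was not tested. *Slc7a11*, the cystine transporter, was at 2.31 and 8.81 in microglia and 379 and 293 in neutrophils.

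Among the genes lower in LI microglia were *Slc25a37*, the mitochondrial iron importer, with a ratio of −0.79, *Bach1*, the heme-sensing repressor of *Hmox1*, with −0.71, *Hif1a* with −0.62 and *Sqstm1* with −0.60. *Bach1* was at 163 CPM in WT and 100.0 in LI microglia. *Cd163*, the receptor for hemoglobin bound to haptoglobin, and *Cp*, the ferroxidase ceruloplasmin, were low in microglia (4.12 and 0.490, 3.40 and 0.979) and high in border macrophages (289 and 221, 113 and 103). *Cd163* is among the markers that define border macrophages, so its high level there follows from the class rule. More WT than LI microglia, 108 against 7, had border macrophage markers, and the part of these cells in the 2 ratios was not tested.

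Between neutrophils and microglia 51 list genes were tested, with 5 higher and 25 lower in both libraries and a median of −1.21 in WT and −1.43 in LI. Over all 9844 genes 57.4% were past the limit, with medians of −1.17 and −1.39, so the list was close to the background. The 5 higher genes were *Ltf*, *Lcn2*, *Hp*, *Slc7a11* and *Fbxl5*, the iron-sensing ubiquitin ligase subunit that degrades an iron regulatory protein. *Fbxl5* was at 67.0 in WT and 44.7 in LI microglia and at 375 and 252 in neutrophils, a log2 ratio of 2.48 and 2.50. Of the lower genes, *Lrp1*, a scavenger receptor for hemopexin, was at 211 and 162 in microglia and 39.0 and 10.2 in neutrophils. *Hfe*, the hemochromatosis gene, was at 126 and 162 against 24.0 and 7.37.

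Likeness of pattern was measured as Pearson's r of log2(CPM + 10) over 18 sums of at least 50 cells, among 5594 genes. The sums were of classes and subclasses with no cell in common. Sums of a library share its depth, so r is a description. *Fth1* was most like *Snap23* (0.82), *Tlr2* and *Slc15a3*, and *Ftl1* most like *Tgfbi* (0.91), *5031439G07Rik* and *Ifi204*. *Slc11a1* tracked *Nfe2l2* (0.98), *Cep170* and *Ifngr2*, and *Slc40a1* tracked *Sipa1l2* (0.89), *Tcn2* and *Cd33*. *Tfrc*, with its few UMIs, was nearest to *Rfc1* (0.84), *Coq7* and *Hvcn1*. For *Hmox1* the nearest genes were *Lrrc25* (0.87), *Ftl1* (0.86) and *5031439G07Rik*. Within the set, *Fth1* and *Ftl1* had r = 0.68, below the 0.86 of *Ftl1* with *Hmox1*, and *Slc40a1* had 0.06 with *Hmox1*.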

How the data were processed

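The authors deposited raw UMI counts per gene and barcode for 1 library per genotype (33601957 UMIs in WT, 47731571 in LI). The file header names Cell Ranger 6.1.2, and the submitters' processing notes name STAR, mm10 and Seurat 3.0.1. Droplet chip B or G and kit v3 or v3.1 were used, and which was used for which library is not given in the sources used here. Barcodes were left out below 200 genes or above 10% mitochondrial UMIs, and doublets were not removed. Microglia had at least 0.5% of UMIs from *P2ry12*, *Gpr34*, *Tmem119*, *Siglech*, *Fcrls* and *Olfml3* and under 1% from *S100a8* and *S100a9*. Neutrophils had at least 3% from the latter pair, border macrophages 3 of 6 markers, and other cells the rest. Within 20% of the cut on either side lay 302 WT and 210 LI barcodes for the microglial cut and 3 and 30 for the neutrophil cut. Subclasses needed 3 markers, immature neutrophils at least 0.5% of UMIs from *Camp* and *Ngp* (2 WT and 105 LI cells lay within 20% of that cut), and cycling cells 2 of 7 markers.

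UMIs were summed per class and library and divided by the class total and multiplied by 1000000 (CPM). Thinning drew 1000 UMIs from each cell and left out cells with fewer, 156 in WT and 61 in LI. Genotype ratios counted as past 1.5-fold when their 95% exact interval left out 0, over genes with at least 50 UMIs, and class ratios when 2-fold in the same direction in both libraries. With 1 library per genotype there were no replicates and no test. All 6 genes were named, with list genes named when at least 50 CPM in a class of both libraries and 4-fold apart between neutrophils and microglia or past 1.5-fold between genotypes in microglia, at most 15, and the 3 genes most like each member. The genes, lists and rules were chosen with earlier results of these data known. Reads of *Ftl1* can be split with its near-identical copy *Ftl1-ps1*. Hairpins were sought in GENCODE transcripts. R 4.3.3 with edgeR 4.0.16 (TMM factors only) and Python 3.11.15 with pandas 2.3.3, scipy 1.17.1, numpy 2.4.6 and matplotlib 3.10.9 were used, and scripts were tested on simulated data.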

Additional observations from a re-analysis of the deposited data

Results flagged for a closer look

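The LI to WT log2 ratio of *Fth1* had opposite signs between classes. It was 0.30 in microglia, 0.08 in neutrophils and 0.23 in border macrophages, and −0.86 in other cells. The difference was not tested, each ratio rests on 1 library per genotype, and within the monocyte-like cells of the last class it was −0.13.

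A locus outside the 6 genes, the *Ftl1* copy *Ftl1-ps1*, held 94 UMIs in WT and 200 in LI, or 2.80 and 4.19 CPM over all cells. Transcripts of *Ftl1* itself held 81756 and 166039 UMIs. The mitochondrial ferritin *Ftmt* and the *Fthl17* genes had 0 UMIs in both libraries.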

How the results depend on the processing

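Summary counts were recomputed under each alternative. They were genes past the limits, genes highest in border macrophages of both libraries, and class sums with a *Fth1* to *Ftl1* ratio above 1. Of these, 66 of 79 kept within 1.5 times of the reported count. The 13 that moved were all counts of genes past the limits, given next. In neutrophils the 2 genes past 1.5-fold between genotypes became 1 after thinning to 1000 UMIs and 4 under TMM scaling. In border macrophages the 1 gene became 0 after thinning and 2 under TMM scaling, with the mean of each cell's CPM, with microglia from 1% and with the border macrophage rule applied first. In microglia the 1 gene became 2 with microglia from 1%. Against microglia, the 1 gene of neutrophils became 0 under TMM scaling and with totals without mitochondrial, hemoglobin and class-defining genes. It became 2 with microglia from 1%, without the top 5% of barcodes by UMIs, and, chosen after seeing the data, without neutrophils that had microglial markers. After thinning the count stayed at 1, but the gene was *Tfrc*, with no UMI left in WT neutrophils, as *Slc11a1* fell short in WT (−0.49). Reversed values were *Hmox1* in WT neutrophils over microglia after thinning (0.32), *Ftl1* LI over WT in border macrophages by mean CPM (−0.031), *Slc40a1* LI over WT in neutrophils under TMM scaling (0.065), and *Slc40a1* (0.37) and *Hmox1* (0.77) in LI neutrophils over microglia under TMM scaling. The thinned *Hmox1* value rests on 7 of 115 WT neutrophils with a UMI. The causes were not tested. *Slc40a1* LI over WT in microglia ranged from −0.83 to −0.76 over 11 alternatives. *Tfrc* in LI neutrophils over microglia went from −0.10 to −1.49 after thinning and 1.26 under TMM scaling. No paired analysis was possible because each genotype had 1 library. Depth limits *Tfrc* everywhere and *Slc11a1*, *Slc40a1* and *Hmox1* in WT neutrophils.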
